A study of Mus musculus with 8 samples.

Results

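The genes described here are 40 mouse genes of the extracellular matrix and of the cells that lay it down: fibrillar collagens, basement membrane collagens and laminins, collagen VI, matrix glycoproteins and elastic fibre genes, small leucine-rich proteoglycans, and genes of pancreatic stellate cells, pericytes and fibroblasts. They were picked by symbol, with no measured value in the rule, from the 54532 gene identifiers of each deposited table. The list was nevertheless chosen with earlier results of these data known. Each of the 40 symbols matched 1 identifier, and all 40 were among the 17055 genes that passed the filter on low counts and were tested. The extracellular matrix is the mesh of secreted proteins around cells. Fibrillar collagens give it tensile strength, whereas basement membranes are thin sheets of collagen IV, laminins, nidogens and perlecan under endothelia and epithelia. Islets are densely supplied with capillaries, whose endothelium makes much of the basement membrane inside the islet, and pericytes, stellate cells and fibroblasts are the usual sources of fibrillar collagen in the pancreas.

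Primary islets, the hormone-producing cell clusters of the pancreas, came from wild-type and Sting-/- mice of 25 to 30 weeks, were freed with collagenase and picked by hand. After a night in culture they were kept for 3 h with DMSO, the solvent, or with DMXAA at 50 µg/mL, an agonist of mouse STING, the adaptor that links cytosolic DNA sensing to interferon genes. The 4 groups are wild type with DMSO, wild type with DMXAA, Sting-/- with DMSO and Sting-/- with DMXAA, with 2 libraries of polyadenylated RNA each. The labels do not describe the Sting allele, and they do not say that replicates came from separate mice. Every p-value therefore measures scatter between libraries, which may not be scatter between mice. Replicates differed beyond counting noise, with a chi-square per degree of freedom of 6.83 to 53.8 within groups. Collagenase digests the matrix that the genes described here encode, and the labels give no undigested tissue to compare with.

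Library totals ran from 15624020 to 19601850 counts, and the 40 genes took from 0.0982 to 0.206% of them. Sting1, the gene named as deleted, had 39 and 41 counts in the wild-type DMSO libraries, 23 and 39 with DMXAA, 48 and 19 in the knockout-labelled DMSO libraries and 35 and 27 with DMXAA. Its log2 difference between genotypes under DMSO was 0.03 with a standard error of 0.47 (edgeR quasi-likelihood test, adjusted p = 0.984), so these counts do not tell the labels apart, and the libraries are called knockout-labelled below. Counts summed over a gene do not show whether a part of it is deleted. Summed levels of markers of other cells also differed between libraries, in CPM, counts scaled to 1000000 per library with TMM factors. The 16 acinar markers summed to 6575 and 1355 CPM in wild-type DMSO libraries, to only 403 and 352 CPM in knockout-labelled DMXAA libraries, and to between 1517 and 2828 CPM in the other 4. The 16 endothelial markers summed to 994 to 1244 CPM with DMSO and 793 to 818 CPM with DMXAA in wild type, and to 840 to 927 CPM and 1400 to 1526 CPM in the knockout-labelled libraries. The 13 lymphocyte markers summed to 93.7 to 126 CPM in knockout-labelled DMSO libraries and to 4.23 to 43.6 CPM in the other 6. Macrophage, duct, Schwann cell and mesothelial markers are given with the pathway lists, and the part that any of these cell types plays in the results was not tested.

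Together the 40 genes summed to 1529.8 and 1386 CPM in wild-type DMSO libraries, 989 and 1311 CPM with DMXAA, 1102 and 1073 CPM in knockout-labelled DMSO libraries and 1937 and 1820.5 CPM with DMXAA. The knockout-labelled DMXAA pair was the highest of the 4 groups and did not overlap any other. Without TMM scaling the gap was narrower for replicate 2. The pair took 0.206 and 0.159% of its counts, against 0.155 and 0.153% in the wild-type DMSO libraries. In bulk RNA, fewer cells of a type and less RNA per cell cannot be told apart, and this holds for every level below. Replicates did not move alike. In wild type with DMSO, 25 of the 40 genes were higher in replicate 1, with a median log2 ratio of 0.36. In wild type with DMXAA only 6 were higher in replicate 1, with a median of -0.52. Over all tested genes the same medians were 0.00 and 0.01. In the knockout-labelled pairs the median over the 40 genes was -0.01 with DMSO and 0.26 with DMXAA. Wild-type DMSO replicate 1, the library with the highest acinar sum, was the highest of the 8 libraries for 20 of the 40 genes, and wild-type DMXAA replicate 1 the lowest for 23, against 21.7 and 12.7% of all tested genes.

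**Figure D1:**
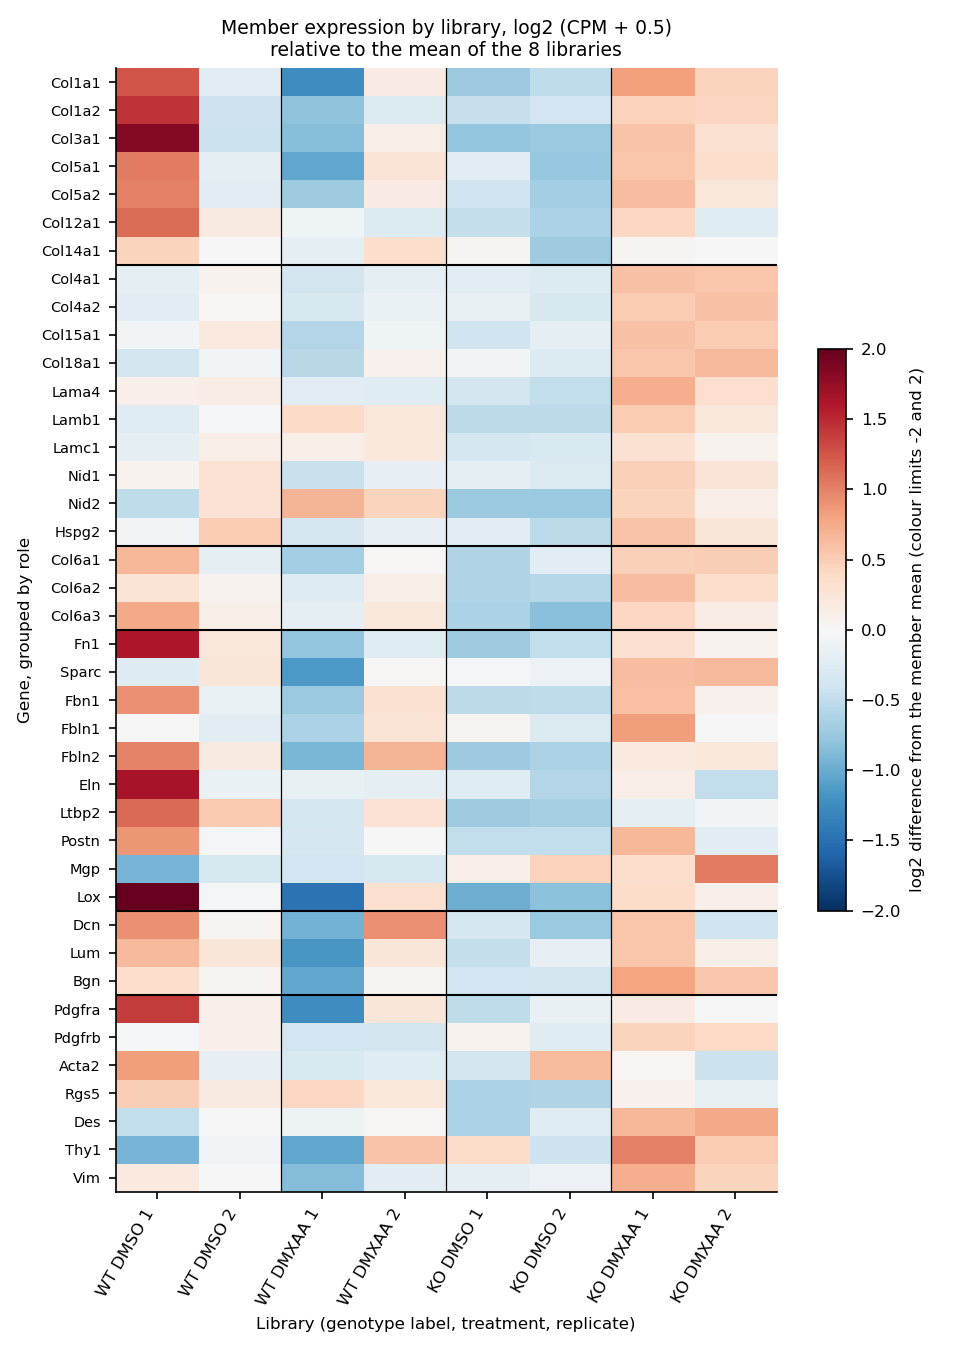
Rows are the 40 genes, grouped by role, and columns the 8 libraries (WT, wild type; KO, knockout-labelled); colour is the log2 (CPM + 0.5) value minus the gene's mean over the 8 libraries, limited at -2 and 2. The fibrillar collagens are darkest in wild-type DMSO replicate 1, and the basement membrane genes are warm in both knockout-labelled DMXAA libraries.

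In wild-type islets none of the 40 genes passed the test between DMXAA and DMSO (edgeR quasi-likelihood test with Benjamini-Hochberg adjustment over 17055 genes, adjusted p under 0.05). The background was 1.48% of all tested genes called. At an unadjusted p under 0.05 there were 11 of the 40 genes with edgeR, beside 11.9% of all tested genes. There were 12 with limma-voom and 13 with DESeq2, beside 11.7 and 10.4% of all tested genes. DESeq2 called 1, Fn1, beside 2.1% of all tested genes. The median log2 difference of the 40 genes was -0.50, with 32 below zero and 8 above, against a median of 0.00 over all tested genes. In 13 of the 40 both DMXAA libraries lay below both DMSO libraries, and in 2, Lamb1 and Nid2, they lay above. Over all tested genes these shares were 23.9 and 22.5%. The median was -0.11 and -0.68 without wild-type DMSO replicate 1 and 2, and -0.26 and -0.94 without wild-type DMXAA replicate 1 and 2. Each such fit leaves 1 library in that group. Some of the 40 genes were called without replicate 2 of either pair. Over all tested genes calls rose without wild-type DMSO replicate 2 and fell without wild-type DMXAA replicate 2.

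In the knockout-labelled islets 4 of the 40 genes rose with DMXAA and none fell: Col4a1, Col4a2, Lama4 and Lamb1, all of them basement membrane genes. The background was 0.375% of all tested genes called, and 0.164% called higher. The median log2 difference was 0.86 against 0.00 over all tested genes, with 39 of the 40 above zero and Acta2, smooth muscle actin, below. In 34 of the 40 both DMXAA libraries lay above both DMSO libraries, against 18.1% of all tested genes, and in none did they lie below, against 17.7%. No call held in every fit that left out 1 library. Such a fit leaves 1 group with a single library. Without any 1 knockout-labelled or wild-type DMXAA library, fewer of all tested genes were called as well. The losses below are thus not particular to these 4 genes. Without knockout-labelled DMSO replicate 1 or 2, or DMXAA replicate 1, none of the 4 was called, with adjusted p from 0.327 to 0.345, 0.455 to 0.724 and 0.0914 to 0.137. Without wild-type DMXAA replicate 1 or 2 they were at 0.0518 to 0.0909 and 0.0522 to 0.0903, and without knockout-labelled DMXAA replicate 2 only Lama4 and Lamb1 were called. Without wild-type DMSO replicate 2 these genes stayed called, and more of all tested genes were called too.

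The difference between the DMXAA effects of the knockout-labelled and wild-type islets was tested as an interaction over all 8 libraries. It was above zero for all 40 genes, with a median of 1.36 on the log2 scale against 0.00 over all tested genes, and 7 passed the test: Col4a1, Col15a1, Lama4, Nid1, Hspg2, Col6a3 and Vim. The background was 1.2% called, with 0.668% called in this direction and 0.528% in the other. Without wild-type DMXAA replicate 1, or either knockout-labelled DMSO library, none of the 7 was called, with adjusted p from 0.106 to 0.292, 0.109 to 0.275 and 0.145 to 0.335. Col4a1 and Lama4 alone were called without knockout-labelled DMXAA replicate 1, and Col6a3, Col15a1 and Vim alone without wild-type DMXAA replicate 2. Of the 7, Col6a3 and Vim were lost without wild-type DMSO replicate 1, Col15a1, Nid1 and Hspg2 without replicate 2, and Col6a3 and Col15a1 without knockout-labelled DMXAA replicate 2. Without wild-type DMSO replicate 2 the median was 1.43, and more genes were called, among the 40 and over all tested genes. Over all tested genes, calls in this test also fell without wild-type DMXAA replicate 1 or either knockout-labelled DMSO library.

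**Figure D2:**
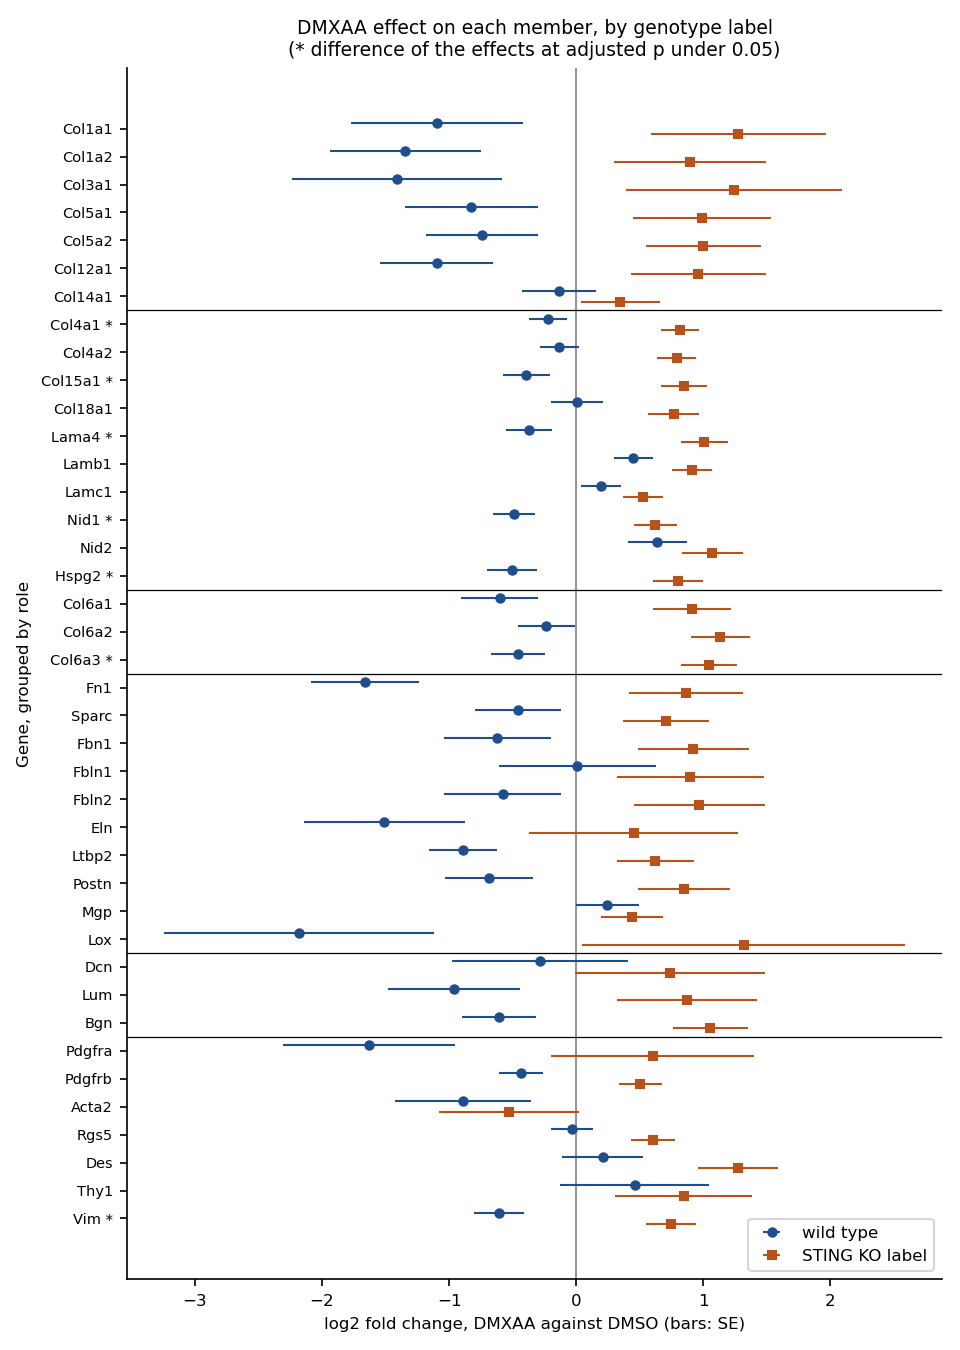
Each row is 1 of the 40 genes, with the log2 DMXAA against DMSO difference and its SE on the x axis, as a circle for wild type and a square for the knockout-labelled islets. Of the circles 32 lie left of zero and of the squares 39 lie right of it; an asterisk marks the 7 genes whose difference between the effects passed the test.

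Between genotypes under DMSO, 3 of the 40 genes were lower in the knockout-labelled libraries and none was higher: Col6a3, Ltbp2 and Rgs5. The background was 0.223% called, and 0.041% called lower. None of the 40 genes was called with limma-voom, an older form of the quasi-likelihood test, a stricter filter or the compared libraries alone. Each of these settings also called fewer of all tested genes. The median log2 difference was -0.71, with 37 below zero, against 0.00 over all tested genes. In 29 of the 40 both knockout-labelled libraries lay below both wild-type libraries, against 22.4% of all tested genes, and in 1, Mgp, they lay above, against 24.3%. Without wild-type DMSO replicate 1, the library with the highest acinar sum, none of the 3 was called (adjusted p from 0.156 to 0.22), nor without knockout-labelled DMSO replicate 1 (0.294 to 0.384) or 2 (0.495 to 0.624). Rgs5 was also lost without either wild-type DMXAA library, and Col6a3 without knockout-labelled DMXAA replicate 2. Without wild-type DMSO replicate 2 the median was -0.85 and more of the 40 genes were called. In that fit an unadjusted p under 0.05 was also more common over all tested genes.

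Under DMXAA, 7 of the 40 genes were higher in the knockout-labelled than in the wild-type libraries and none was lower: Col4a1, Col4a2, Col15a1, Lama4, Mgp, Pdgfrb and Vim. The background was 2.39% called, with 1.02% called higher and 1.37% lower. EdgeR with the compared libraries alone called only Col4a1 and Col4a2. At an unadjusted p under 0.05 that fit gave 18 of the 40 genes, beside 12% of all tested genes. The median log2 difference was 0.71 against 0.04 over all tested genes, with 35 above zero. In 21 of the 40 both knockout-labelled libraries lay above both wild-type libraries, against 23.3% of all tested genes, and in 2, Nid2 and Rgs5, they lay below, against 21%. Without wild-type DMXAA replicate 1 none of the 7 was called, with adjusted p from 0.147 to 0.375. Col4a1 and Vim were called in each of the other 7 such fits. Without wild-type DMSO replicate 2 the median was 0.71 and more of the 40 genes were called. In that fit an unadjusted p under 0.05 was also more common over all tested genes. Col4a2 was lost without replicate 2 of either DMXAA pair, Lama4 without wild-type DMXAA replicate 2, either knockout-labelled DMSO library and knockout-labelled DMXAA replicate 1, Col15a1 without any 1 of the 4 knockout-labelled libraries, and Mgp and Pdgfrb without wild-type DMXAA replicate 2, either knockout-labelled DMSO library and knockout-labelled DMXAA replicate 2. The comparisons of DMXAA and of genotype share libraries, so their values stand side by side and no overlap between them is counted.

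Collagen IV, the network-forming collagen of basement membranes, was the most abundant collagen here per kilobase of exon. Col4a1 (ENSMUSG00000031502, mm10 chr8:11198423-11312826, minus strand) and Col4a2 (ENSMUSG00000031503, chr8:11312805-11449287, plus strand) encode the chains that combine in its common heterotrimer, and they lie head to head, with annotated 5′ ends that overlap by 22 bp. Their promoter windows are shown because these genes moved side by side, from RefSeq on GRCm38.p6 with 250 bases before and 50 after each start, each on its own gene's strand. Capitals mark the 78 bases that lie in both windows, read from opposite strands, at chr8:11312777-11313076 for Col4a1 and chr8:11312555-11312854 for Col4a2.
Col4a1: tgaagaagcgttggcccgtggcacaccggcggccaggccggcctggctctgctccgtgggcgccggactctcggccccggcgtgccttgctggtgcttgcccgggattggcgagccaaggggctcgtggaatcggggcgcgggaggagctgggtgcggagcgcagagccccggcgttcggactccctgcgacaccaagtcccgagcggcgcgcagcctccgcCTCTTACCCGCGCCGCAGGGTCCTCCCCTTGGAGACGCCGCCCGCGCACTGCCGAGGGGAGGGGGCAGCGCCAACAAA
Col4a2: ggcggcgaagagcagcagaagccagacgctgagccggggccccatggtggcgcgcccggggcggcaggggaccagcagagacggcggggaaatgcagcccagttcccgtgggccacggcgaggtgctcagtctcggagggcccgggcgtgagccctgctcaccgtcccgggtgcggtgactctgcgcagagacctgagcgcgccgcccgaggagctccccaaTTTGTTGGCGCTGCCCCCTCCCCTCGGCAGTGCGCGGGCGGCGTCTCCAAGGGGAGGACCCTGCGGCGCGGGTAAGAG

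Col4a1 was at 184 and 219 CPM in wild-type DMSO libraries, 162 and 184 with DMXAA, 181 and 172 in the knockout-labelled DMSO libraries and 315 and 307 with DMXAA. The 2 knockout-labelled DMXAA libraries were the highest, and the other 6 lay close together. Its log2 DMXAA difference in the knockout-labelled islets was 0.82 ± 0.15 (SE, adjusted p = 0.0388), and its difference between the DMXAA effects was 1.04 ± 0.21 (adjusted p = 0.0275). Under DMXAA it was 0.85 ± 0.15 higher in the knockout-labelled libraries (edgeR, adjusted p = 0.00616), the smallest p of the 40 genes in that comparison. These calls were kept in 2, 4 and 7 of the 8 fits that each left out 1 library, the libraries being named with the counts above. Col4a2 was at 136 and 162 CPM in wild-type DMSO libraries, 127 and 145 with DMXAA, 142 and 126 in the knockout-labelled DMSO libraries and 226 and 239 with DMXAA. It rose by 0.79 ± 0.15 with DMXAA in the knockout-labelled islets (edgeR, adjusted p = 0.0458, kept in 2 of the 8 fits) and was 0.77 ± 0.15 higher there under DMXAA (adjusted p = 0.014, kept in 5). Col4a1 over Col4a2 stayed between 1.27 and 1.39 in the 8 libraries. How reads of the shared 5′ bases were assigned is not known, since the strand setting of the counting is not given in the sources used here.

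Laminins are cross-shaped trimers that anchor cells to the basement membrane. Lama4 (ENSMUSG00000019846, mm10 chr10:38965515-39110188), the alpha chain typical of endothelial basement membrane, was at 19.0 and 19.8 CPM in wild-type DMSO libraries, 15.1 and 14.9 with DMXAA, 13.5 and 12.5 in the knockout-labelled DMSO libraries and 29.6 and 22.6 with DMXAA. The groups did not overlap in any pair. It rose by 1.01 ± 0.19 on the log2 scale with DMXAA in the knockout-labelled islets (edgeR, adjusted p = 0.0397, kept in 3 of the 8 fits), and the difference between the DMXAA effects was 1.38 ± 0.26 (adjusted p = 0.0176, kept in 4), the smallest p of the 40 genes in that test. Under DMXAA it was 0.80 ± 0.18 higher in the knockout-labelled libraries (adjusted p = 0.036, kept in 3). Lamb1 (ENSMUSG00000002900, chr12:31265234-31329644), a beta chain, had another pattern, at 43.7 and 50.1 CPM in wild-type DMSO libraries, 67.2 and 60.8 with DMXAA, 35.7 and 35.8 in the knockout-labelled DMSO libraries and 74.0 and 60.4 with DMXAA. Both DMXAA pairs lay above their DMSO pair. The rise in the knockout-labelled islets was 0.91 ± 0.16 (edgeR, adjusted p = 0.0286, kept in 3 of the 8 fits). In wild type the value was 0.45 ± 0.15, which did not pass (adjusted p = 0.296), and the difference between the effects was 0.46 ± 0.22 (adjusted p = 0.579). Lamb1 over Lama4 was 2.29 to 2.53 and 2.64 to 2.87 in the DMSO pairs, 4.07 to 4.46 in wild type with DMXAA and 2.50 to 2.67 in the knockout-labelled DMXAA pair. Lamc1, the common gamma chain, ran from 49.9 to 79.4 CPM and was called in no fit.

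Nidogens bridge the laminin and collagen IV networks. Nid1 (ENSMUSG00000005397, mm10 chr13:13437551-13512269) was at 34.5 and 40.0 CPM in wild-type DMSO libraries, 23.9 and 29.2 with DMXAA, 28.7 and 26.7 in the knockout-labelled DMSO libraries and 45.8 and 39.4 with DMXAA. It was lower with DMXAA in the wild-type libraries and higher in the knockout-labelled ones, with no overlap, and the difference between the effects was 1.11 ± 0.24 (edgeR, adjusted p = 0.0367, kept in 2 of the 8 fits). Nid2 was at 14.7 and 25.8 CPM in wild-type DMSO libraries, 34.3 and 29.0 with DMXAA, 12.5 and 12.4 in the knockout-labelled DMSO libraries and 28.9 and 23.3 with DMXAA. It lay higher with DMXAA in both genotypes, by 0.64 ± 0.23 and 1.07 ± 0.24, and passed neither test with edgeR over all 8 libraries (adjusted p = 0.324 and 0.0867). DESeq2, and edgeR with no filter or with the compared libraries alone, called the second. Nid2 over Nid1 was 1.43 and 0.993 in the wild-type DMXAA libraries and between 0.427 and 0.646 in the other 6. Nid1 shares exonic bases with Gm48682 and Nid2 with Rtraf, each on the opposite strand, and how reads of these bases were assigned is not known.

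Hspg2 (ENSMUSG00000028763, mm10 chr4:137468769-137570630) encodes perlecan, the large heparan sulfate proteoglycan of basement membranes. It was at 57.8 and 85.1 CPM in wild-type DMSO libraries, 47.5 and 53.2 with DMXAA, 51.0 and 41.1 in the knockout-labelled DMSO libraries and 89.4 and 70.8 with DMXAA. Wild-type DMSO replicate 2 lay within the range of the knockout-labelled DMXAA pair. The difference between the DMXAA effects was 1.31 ± 0.28 (edgeR, adjusted p = 0.0382, kept in 2 of the 8 fits). Col15a1 (ENSMUSG00000028339, chr4:47208161-47313167), a collagen at the outer face of basement membranes, was at 36.6 and 43.2 CPM in wild-type DMSO libraries, 25.0 and 35.8 with DMXAA, 28.7 and 33.1 in the knockout-labelled DMSO libraries and 57.2 and 54.2 with DMXAA. Its difference between the effects was 1.24 ± 0.26 (adjusted p = 0.0327, kept in 2), and it was 0.87 ± 0.18 higher in the knockout-labelled libraries under DMXAA (adjusted p = 0.021, kept in 3). Col15a1 shares exonic bases with Gm12426 on the opposite strand. Col18a1, whose C-terminal fragment is endostatin, ran from 29.3 to 68.2 CPM, highest in the knockout-labelled DMXAA pair. EdgeR over all 8 libraries did not call it (adjusted p = 0.0576 between genotypes under DMXAA). That value was called by DESeq2 and limma-voom, with no filter and with a replicate block, and the rise with DMXAA in the knockout-labelled islets with no filter and with the compared libraries alone.

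Summed over the 10 basement membrane genes, the levels were 615 and 758 CPM in wild-type DMSO libraries, 602 and 672 CPM with DMXAA, 585 and 548 CPM in knockout-labelled DMSO libraries and 1009 and 952 CPM with DMXAA. The knockout-labelled DMXAA libraries were the highest, and the other groups lay between 548 and 758 CPM. In 9 of the 10 genes the highest library was a knockout-labelled DMXAA library, the exception being Nid2, and in 5 of the 10 both were on top. Over all tested genes these shares were 31.4 and 4.83%. Endothelial markers moved in the same libraries: the basement membrane sum over the endothelial marker sum was 0.609 to 0.652 in the 4 DMSO libraries, 0.661 and 0.68 in the knockout-labelled DMXAA libraries, and 0.759 and 0.821 in the wild-type DMXAA libraries. The part of endothelial RNA in these levels was not tested.

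**Figure D3:**
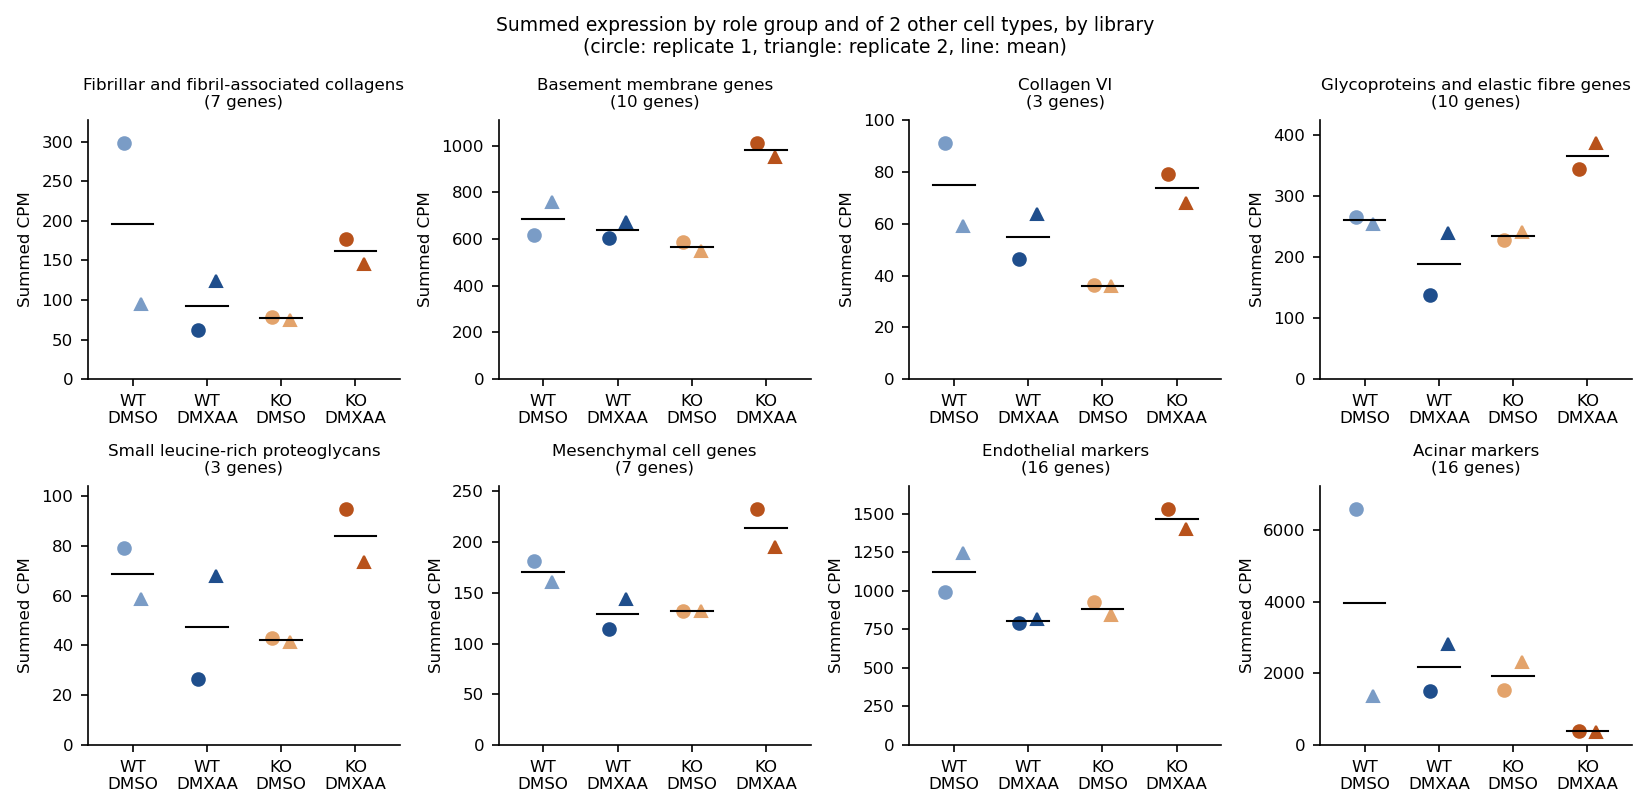
Summed CPM per library is plotted for the 6 role groups and for the endothelial and acinar marker lists, with a circle for replicate 1, a triangle for replicate 2 and a line at the mean. The basement membrane sum is 1009 and 952 CPM in knockout-labelled DMXAA libraries, and the fibrillar sum is 298 CPM in wild-type DMSO replicate 1.

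Fibrillar and fibril-associated collagens gave no called gene in any of the 5 comparisons with edgeR, DESeq2 or limma-voom fitted to all 8 libraries, and all were highest in 1 library. At an unadjusted p under 0.05, edgeR gave 1 of the 7 for DMXAA in wild type, 4 for the difference of the effects and 2 for genotype under DMSO. Over all tested genes these shares were 11.9, 8.71 and 12.3%. Col1a1, a chain of collagen I, the main fibrillar collagen, was at 83.0 and 29.7 CPM in wild-type DMSO libraries, 14.2 and 38.5 with DMXAA, 20.5 and 23.8 in the knockout-labelled DMSO libraries and 60.8 and 46.7 with DMXAA. Col3a1, the collagen III gene, was at 95.3 and 19.4 CPM in wild-type DMSO libraries, 14.5 and 28.6 with DMXAA, 15.1 and 15.5 in the knockout-labelled DMSO libraries and 39.6 and 32.7 with DMXAA. In both genes wild-type DMSO replicate 1 stood far above its replicate, and the wild-type groups overlapped. The knockout-labelled DMXAA libraries lay above the knockout-labelled DMSO pair, by 1.28 ± 0.69 for Col1a1 and 1.24 ± 0.85 for Col3a1 on the log2 scale, and neither passed (edgeR, adjusted p = 0.812 and 0.884). With edgeR on the 4 compared libraries alone both were called, at 1.27 ± 0.186 (adjusted p = 0.00621) for Col1a1, the smallest p of the 40 genes in that fit, and 1.24 ± 0.184 (adjusted p = 0.0071) for Col3a1. Col12a1, a fibril-associated collagen at the surface of collagen I fibres, had the smallest interaction p of the group, at 4.21 and 1.97 CPM in wild-type DMSO libraries, 1.56 and 1.30 with DMXAA, 1.07 and 0.906 in the knockout-labelled DMSO libraries and 2.42 and 1.35 with DMXAA. Its difference between the effects was 2.06 ± 0.69 (adjusted p = 0.307), from 16 to 80 counts per library.

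All 7 genes of the group were highest in wild-type DMSO replicate 1. Their sum was 298 and 95.2 CPM in wild-type DMSO libraries, 61.9 and 124 CPM with DMXAA, 78.6 and 74.6 CPM in knockout-labelled DMSO libraries and 177 and 146 CPM with DMXAA. Over the basement membrane sum it was 0.484 in wild-type DMSO replicate 1 and between 0.103 and 0.185 in the other 7 libraries. The acinar sum was also highest in that library, at 6575 CPM, yet lowest in the knockout-labelled DMXAA pair, where the fibrillar sum ranked next. Without wild-type DMSO replicate 2, Col1a2, Col3a1 and Col5a2 were called lower with DMXAA in wild type, which then rests on replicate 1 alone for the DMSO group.

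**Figure D4:**
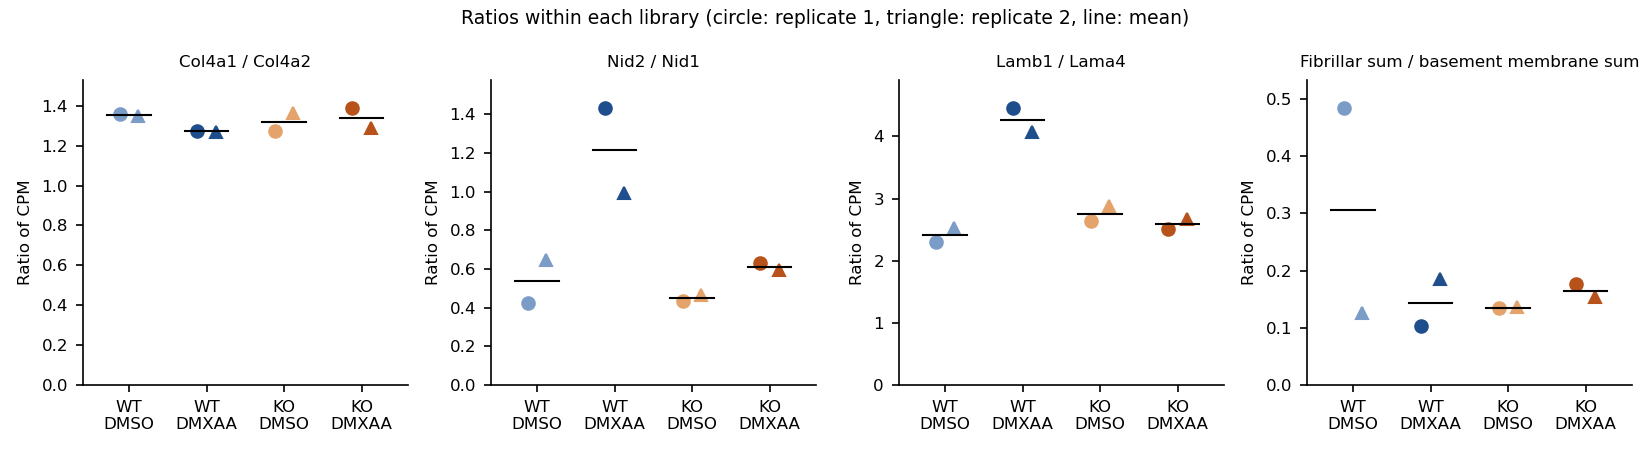
Ratios of CPM within each library are plotted for Col4a1 over Col4a2, Nid2 over Nid1, Lamb1 over Lama4 and the fibrillar over the basement membrane sum; the line is the mean of the 2 libraries of a group. Col4a1 over Col4a2 stays between 1.27 and 1.39, Nid2 over Nid1 and Lamb1 over Lama4 are highest in the wild-type DMXAA pair, and 1 wild-type DMSO library stands apart in the last panel.

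Collagen VI forms beaded microfilaments that link basement membranes to the surrounding matrix. Col6a3 (ENSMUSG00000048126, mm10 chr1:90765923-90843971), its longest chain, was at 62.0 and 39.6 CPM in wild-type DMSO libraries, 31.8 and 42.2 with DMXAA, 23.2 and 20.3 in the knockout-labelled DMSO libraries and 48.9 and 40.5 with DMXAA. The knockout-labelled DMSO libraries were the lowest of the 8. Their log2 difference from wild type was -1.22 ± 0.22 (edgeR, adjusted p = 0.0419, kept in 4 of the 8 fits), and the difference between the DMXAA effects was 1.50 ± 0.31 (adjusted p = 0.029, kept in 2). Col6a1 was at 17.1 and 9.25 CPM in wild-type DMSO libraries, 6.46 and 10.8 with DMXAA, 6.80 and 9.12 in the knockout-labelled DMSO libraries and 15 and 15.1 with DMXAA, and was called only for the difference of the effects without wild-type DMSO replicate 2. Col6a2 ran from 6.27 to 15.3 CPM and was lowest in the knockout-labelled DMSO pair. EdgeR did not call it over all 8 libraries, but DESeq2, and edgeR with no filter on low counts, called it for DMXAA in the knockout-labelled islets and for the difference of the effects.

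Among the 10 glycoprotein and elastic fibre genes, Mgp, Sparc, Fn1 and Ltbp2 had distinct patterns. Mgp (ENSMUSG00000030218, mm10 chr6:136872435-136875823), matrix Gla protein, an inhibitor of calcification, was at 36.1 and 55.2 CPM in wild-type DMSO libraries, 52.9 and 55.3 with DMXAA, 73.8 and 95.6 in the knockout-labelled DMSO libraries and 88.0 and 142 with DMXAA. The 4 knockout-labelled libraries lay above the 4 wild-type libraries. The log2 difference between genotypes was 1.09 ± 0.25 under DMXAA (edgeR, adjusted p = 0.045, kept in 3 of the 8 fits) and 0.89 ± 0.25 under DMSO, which did not pass (adjusted p = 0.216). Under DMSO, DESeq2 (adjusted p = 0.0359) and a replicate block (0.042) called it. Under DMXAA it did not pass with limma-voom (adjusted p = 0.0552), with no filter (0.0935) or with the compared libraries alone (0.0523). Sparc, a collagen-binding glycoprotein of basement membranes, was at 104 and 147 CPM in wild-type DMSO libraries, 55.8 and 127 with DMXAA, 123 and 114 in the knockout-labelled DMSO libraries and 191 and 195 with DMXAA. Wild-type DMXAA replicate 1 was its lowest library, and edgeR over all 8 libraries called no comparison. The rise in the knockout-labelled islets was called with the compared libraries alone (adjusted p = 0.0486). Without wild-type DMXAA replicate 2 the wild-type fall, the difference of the effects and the genotype difference under DMXAA were called.

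Ltbp2 (ENSMUSG00000002020, mm10 chr12:84783212-84876532), a protein of elastic fibre microfibrils, was at 17.8 and 11.6 CPM in wild-type DMSO libraries, 6.03 and 9.78 with DMXAA, 4.60 and 4.81 in the knockout-labelled DMSO libraries and 6.92 and 7.61 with DMXAA. Both knockout-labelled DMSO libraries were the lowest, and the log2 difference from wild type was -1.64 ± 0.29 (edgeR, adjusted p = 0.04, kept in 5 of the 8 fits). Fn1, fibronectin, was at 24.3 and 8.90 CPM in wild-type DMSO libraries, 4.15 and 6.30 with DMXAA, 4.40 and 5.21 in the knockout-labelled DMSO libraries and 9.54 and 7.96 with DMXAA. Its wild-type DMXAA difference was -1.66 ± 0.42 (adjusted p = 0.138 with edgeR), and DESeq2 called it (adjusted p = 0.00173), as it did the difference of the effects and the genotype difference under DMSO. Ltbp2 and Fn1 share exonic bases with D030025P21Rik and Apol7d, on the opposite strand. Lox, which crosslinks collagen and elastin, had the widest ratio of highest to lowest library in this group, 21.9-fold, from 1.18 CPM in wild-type DMXAA replicate 1 to 25.9 CPM in wild-type DMSO replicate 1. Eln, elastin, reached 4.79 CPM in the latter and between 0.623 and 1.36 CPM elsewhere. Postn, Fbn1, Fbln1 and Fbln2 were not called by edgeR over all 8 libraries, and Fbln1 did not exceed 2.08 CPM in any library.

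Small leucine-rich proteoglycans bind collagen fibrils and limit their width. Bgn, biglycan, was at 55.4 and 45.3 CPM in wild-type DMSO libraries, 20.9 and 45.2 with DMXAA, 33.4 and 33.7 in the knockout-labelled DMSO libraries and 75.9 and 63.4 with DMXAA. Its largest values were again in the knockout-labelled DMXAA pair, yet the rise of 1.05 ± 0.29 on the log2 scale did not pass (edgeR, adjusted p = 0.285), but was called with the compared libraries alone (0.00916) and by DESeq2 (0.0162). Dcn, decorin, was at 20.8 and 11.3 CPM in wild-type DMSO libraries, 5.38 and 20.9 with DMXAA, 8.47 and 6.29 in the knockout-labelled DMSO libraries and 16.2 and 8.13 with DMXAA, with replicates that differed as much as the groups. Lum, lumican, had from 8 to 53 counts per library. None of the 3 genes passed edgeR's test over all 8 libraries in any comparison, and at most 1, Bgn, was called by DESeq2. At most 2 had an unadjusted p under 0.05, for the difference of the effects, beside 8.71% of all tested genes.

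Genes of stellate cells, pericytes and fibroblasts differed widely in level. Vim (ENSMUSG00000026728, mm10 chr2:13573927-13582826), the intermediate filament of mesenchymal, endothelial and immune cells, was at 105 and 91.7 CPM in wild-type DMSO libraries, 50.0 and 79.0 with DMXAA, 80.2 and 84.4 in the knockout-labelled DMSO libraries and 152 and 124 with DMXAA. No groups overlapped in the DMXAA comparisons. The difference between the DMXAA effects was 1.35 ± 0.28 (edgeR, adjusted p = 0.0293, kept in 3 of the 8 fits). Under DMXAA Vim was 1.10 ± 0.20 higher in the knockout-labelled libraries (edgeR, adjusted p = 0.00714, kept in 7). It did not pass there in edgeR with the compared libraries alone (adjusted p = 0.0701). Its promoter window, from RefSeq on GRCm38.p6 at chr2:13574061-13574360 on the plus strand, is shown because Vim held its call in 7 fits; capitals mark the 3 matches to CCAAT or TATAAA on either strand.
Vim: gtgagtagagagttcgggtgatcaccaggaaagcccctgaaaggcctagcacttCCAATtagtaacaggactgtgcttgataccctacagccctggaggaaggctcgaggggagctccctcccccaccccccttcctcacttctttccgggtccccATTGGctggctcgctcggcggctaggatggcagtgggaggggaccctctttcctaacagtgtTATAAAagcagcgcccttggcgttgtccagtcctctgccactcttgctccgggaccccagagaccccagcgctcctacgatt

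Pdgfrb (ENSMUSG00000024620, mm10 chr18:61045150-61085061), the PDGF receptor of pericytes and stellate cells, was at 21.7 and 23.7 CPM in wild-type DMSO libraries, 16.6 and 16.9 with DMXAA, 23.1 and 18.5 in the knockout-labelled DMSO libraries and 29.9 and 29.0 with DMXAA. Under DMXAA it was 0.81 ± 0.17 higher on the log2 scale in the knockout-labelled libraries (edgeR, adjusted p = 0.0211, kept in 3 of the 8 fits). Rgs5 (ENSMUSG00000026678, chr1:169655501-169695813), a pericyte marker, was at 43.7 and 35.2 CPM in wild-type DMSO libraries, 41.2 and 35.9 with DMXAA, 19.8 and 20.2 in the knockout-labelled DMSO libraries and 33.0 and 27.9 with DMXAA. All 4 wild-type libraries lay above the 4 knockout-labelled ones, and under DMSO the difference was -0.98 ± 0.17 (adjusted p = 0.04, kept in 3 of the 8 fits). Pdgfra, the fibroblast PDGF receptor, had 3 to 69 counts per library, and Acta2, a marker of activated stellate cells, 15 to 56. Des and Thy1 had 30 to 117 and 31 to 174 counts, and these 4 genes were called in no fit.

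**Figure D5:**
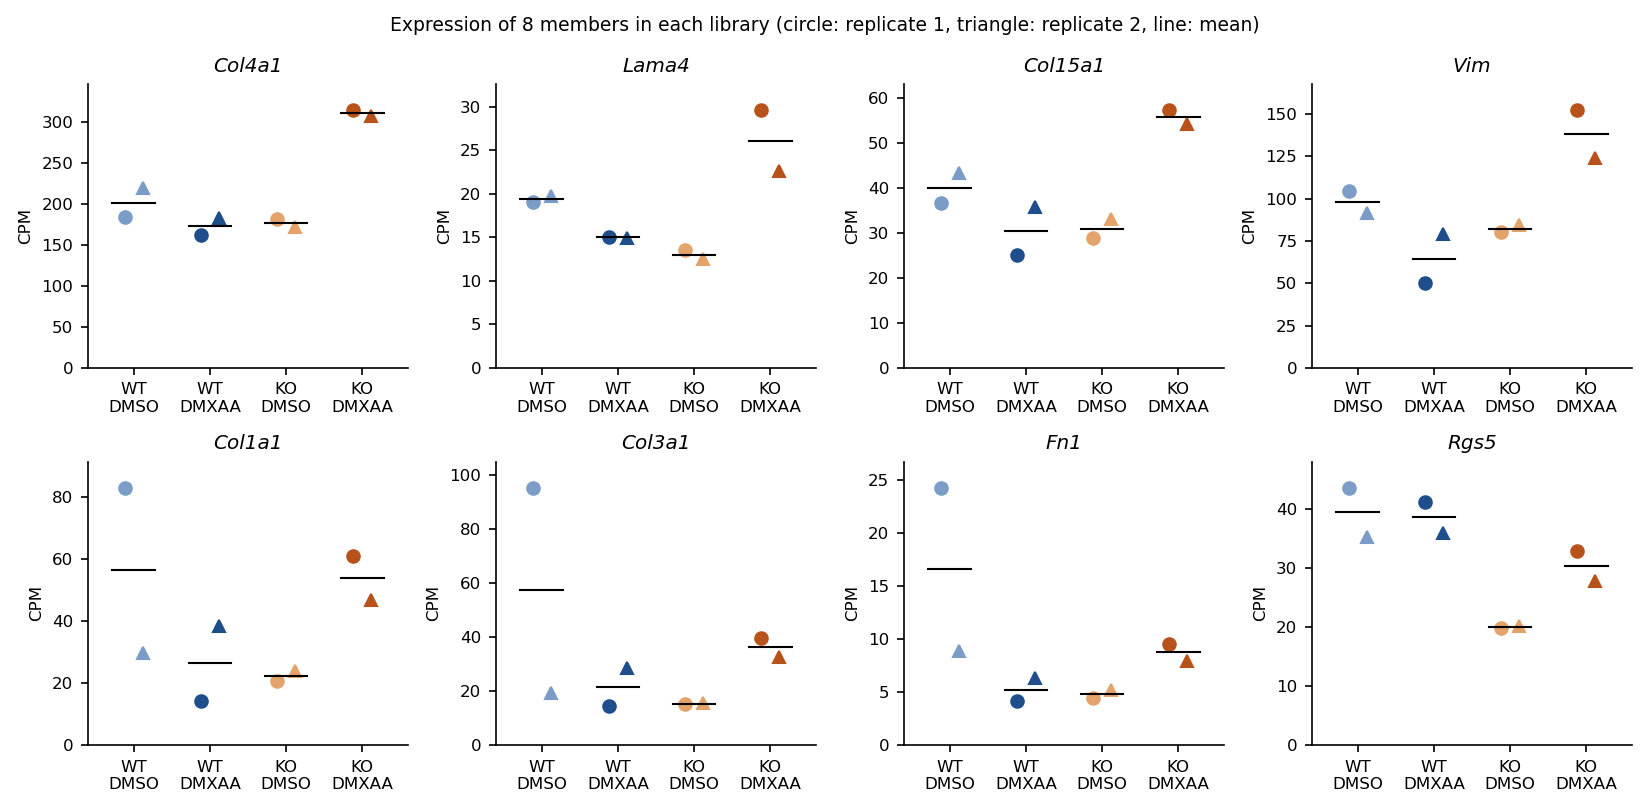
CPM in each of the 8 libraries is plotted for 8 of the genes, with a circle for replicate 1, a triangle for replicate 2 and a line at the mean of 2. Col4a1, Lama4, Col15a1 and Vim are highest in the knockout-labelled DMXAA pair; Col1a1, Col3a1 and Fn1 are highest in wild-type DMSO replicate 1; Rgs5 is lowest in the knockout-labelled DMSO pair.

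Per kilobase of exon, a scale on which genes can be compared, Mgp had the highest mean level over the 8 libraries at 63.1 CPM per kb. Sparc followed at 34.9, Col4a1 at 28.9, Col4a2 at 24.6 and Vim at 20.2 CPM per kb. The next gene, Lamc1, was at 7.86 CPM per kb, and Col1a1, the highest fibrillar collagen, at 6.04 CPM per kb was below 5 of the 10 basement membrane genes. Sparc ran from 14.7 to 51.4 and Col4a1 from 21.7 to 42.2 CPM per kb across libraries, so these neighbours in the order overlap. Eln, Pdgfra and Col12a1 were at the bottom, at 0.177, 0.126 and 0.121 CPM per kb. Each of the 40 genes had a count in every library, and 37 had at least 10, the others being Lum, Fbln1 and Pdgfra.

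Other genes of the matrix pathways were counted from lists made with earlier results known. Among 27 tested genes of collagen processing and secretion, 2 rose with DMXAA in the knockout-labelled islets and none fell, with a median log2 difference of 0.20. Serpinh1, the collagen chaperone HSP47, was there at 41.8 and 36 CPM under DMSO, and at 65.9 and 65.7 CPM under DMXAA (log2 difference 0.76 ± 0.15, edgeR, adjusted p = 0.0458). Serpinh1 was called without either wild-type DMSO library but not without any 1 of the other 6, with adjusted p from 0.0946 to 0.745. Among 27 genes of the TGF-beta pathway, the main inducer of collagen genes, 1 fell in wild type and 2 rose in the knockout-labelled islets. Thbs1, thrombospondin 1, an activator of latent TGF-beta, was at 219 and 198 CPM in wild-type DMSO libraries, 90.1 and 102 with DMXAA, 131 and 121 in the knockout-labelled DMSO libraries and 294 and 218 with DMXAA. Its difference between the DMXAA effects was 2.14 ± 0.24 (adjusted p = 0.000399) and was called in all 8 fits that left out a library, as was that of Tgfbi, a TGF-beta-induced matrix protein, at 1.59 ± 0.24 (adjusted p = 0.00335). In wild type Thbs1 fell by 1.12 (adjusted p = 0.00225), though not past the threshold when DMXAA replicate 1 was left out (adjusted p = 0.0637).

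Of 21 tested PDGF ligands and matrix receptors, Sdc4, the heparan sulfate receptor syndecan 4, was the 1 called in wild type. It was at 36 and 43.0 CPM under DMSO, and at 84.7 and 84.1 CPM under DMXAA (log2 difference 1.10 ± 0.18, edgeR, adjusted p = 0.00418, called in all 8 fits). Among 15 other basement membrane chains none passed with DMXAA in either genotype with edgeR, DESeq2 or limma-voom. In each genotype 2 had an unadjusted edgeR p under 0.05, beside 11.9% of all tested genes in wild type and 7.3% in the knockout-labelled islets. Of their interaction values 11 of 15 were above zero, with a median of 0.63. Between genotypes under DMXAA, edgeR called 1 of the 15, Lama2, beside 2.39% of all tested genes. Lama2 was 1.38 ± 0.31 higher in the knockout-labelled libraries (edgeR, adjusted p = 0.0335). That call was lost in most fits that left out 1 library, and in edgeR with the compared libraries alone (adjusted p = 0.14). Of 11 pericyte and smooth muscle markers, 9 had interaction values above zero, with a median of 0.92 and 1 called in each direction. Ednra was called higher, at 1.33 ± 0.28 (edgeR, adjusted p = 0.0329), but the call was lost in most fits that left out 1 library. Tbx2, a transcription factor, was called lower. In wild type Tbx2 was at 2.05 and 2.31 CPM under DMSO, and at 15 and 17.4 CPM under DMXAA, against 1.70 to 2.71 CPM in the knockout-labelled libraries. It rose by 2.89 ± 0.27 in wild type (adjusted p = 3.29e-05, called in all 8 fits), and the difference between the effects was -3.05 ± 0.44 (adjusted p = 0.00256, called in all 8 fits). Of 11 fibroblast markers outside the 40 genes, 1 had a called interaction, Prrx1, with a median of 0.98 over the list. All of the 16 endothelial markers had interaction values above zero, with 7 called and a median of 0.99. Kdr, the VEGF receptor, was in wild type at 166 and 185 CPM under DMSO, and at 101 and 108 CPM under DMXAA, and at 115 and 116 CPM and 243 and 209 CPM in the knockout-labelled libraries. Its difference between the effects was 1.71 ± 0.21 (adjusted p = 0.000687, called in all 8 fits).

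Markers of other cells had interaction medians of 0.98 for 15 macrophage genes, -2.01 for 16 acinar genes, -0.18 for 12 duct genes, 0.27 for 10 Schwann cell genes, 0.42 for 2 mesothelial genes, -2.49 for 10 lymphocyte genes, -0.03 for 12 beta cell genes and 0.19 for 12 mitochondrial mRNAs. None of their 89 tested genes had a called interaction with edgeR, DESeq2 or limma-voom, and 6 had an unadjusted edgeR p under 0.05. Over all tested genes, edgeR called 1.2% in this test, and 8.71% had an unadjusted p under 0.05. Calls were made in the other comparisons. Of the 10 lymphocyte markers, edgeR called 4 for DMXAA in the knockout-labelled islets, all lower, and 2 between genotypes under DMSO, both higher in the knockout-labelled libraries. Of the 16 acinar markers, edgeR called none in any comparison. DESeq2 called 6 for DMXAA in the knockout-labelled islets and 10 between genotypes under DMXAA. At an unadjusted edgeR p under 0.05 there were 12 and 10, beside 7.3 and 13% of all tested genes. EdgeR also called 1 macrophage marker between genotypes under DMXAA. The mitochondrial mRNAs summed to 11905 and 9137 CPM in wild-type DMSO libraries, 7389.5 and 6127 CPM with DMXAA, 12711 and 15947 CPM in knockout-labelled DMSO libraries and 10485 and 9732 CPM with DMXAA. They were lower under DMXAA in both genotypes, and mt-Nd4, a complex I subunit, was called in wild type (-0.81 ± 0.18, edgeR, adjusted p = 0.0425, kept in 3 of the 8 fits). The part of these differences in the matrix gene results was not tested. The mesothelial markers Upk3b and Krt14 were at 0 in all 8 libraries, and in each of the other lists at least 1 count was found for every gene. Macrophage markers summed to 85.2 to 120 CPM in wild-type DMSO libraries, 80.5 to 82.2 CPM with DMXAA, 105 to 107 CPM in knockout-labelled DMSO libraries and 99.2 to 189 CPM with DMXAA.

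Promoter windows were present in RefSeq for 25 of the 40 genes and were searched on both strands. CCAAT was found in 9 of the 25 genes (36%), against 41.1% of all 27025 genes with a window, and TATAAA in 3 (12%, against 15.7%). GGGCGG was found in 15 (60%, against 38.2%), CAGACA, a SMAD-binding element, in 8 (32%, against 23.6%) and the kB core, GGG then any 5 bases then CC, in 19 (76%, against 53.5%). GGGCGG can lie within a kB core, so these counts overlap. The core of the interferon-stimulated response element, GAAA then any 2 bases then GAAA, was found in 1, Fbn1 (4%, against 3.99%), and the CArG box in none (against 1.81%). These matches describe letters in 300 bases and not binding.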

How the data were processed

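Poly(A) RNA of 8 mouse islet libraries was sequenced as paired ends, per the labels' protocols. The deposited tables hold raw counts per gene, which the authors made with HISAT2 and HTSeq on mm10, per the submitters' processing notes; versions, annotation release and strand setting being not given in the sources used here. GENCODE M21, of the same build, gave symbols and coordinates for 54495 of 54532 identifiers.

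Counts were tested with edgeR 4.0.16 (R 4.3.3): genes kept by filterByExpr by group (17055), TMM scaling, 1 coefficient per group over all 8 libraries (4 residual degrees of freedom, biological coefficient of variation 17.1%), a robust quasi-likelihood test for 5 contrasts, and Benjamini-Hochberg adjustment over all tested genes. A gene was called at an adjusted p under 0.05. Values after ± are standard errors of log2 differences. CPM are counts per 1000000 of TMM-scaled library size. With 2 libraries a group, the smallest two-sided p of an exact permutation test is 0.333, so none is given. Alternatives used limma 3.58.1 (voom) and DESeq2 1.42.0, other filters and scaling, a replicate block and fits without each library.

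The 40 genes, the 15 lists and the tests were chosen with earlier results of these data known. Values in every library are given for genes called in any contrast, for the 2 most abundant per kilobase in each role group and for the smallest interaction p in each; genes of the lists are named from those called, at most 3 by p per contrast. Lamb1 over Lama4 and the genes named with their ranges were singled out after their values were seen. Of the 40 genes, 13 share exonic bases with another gene in M21, 12 of them on the opposite strand.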

Additional observations from a re-analysis of the deposited data

Results flagged for a closer look

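The effect of DMXAA differed between the knockout-labelled and wild-type islets, by edgeR's interaction test with an adjusted p under 0.05, for 7 of the 40 matrix genes. On the log2 scale, knockout-labelled minus wild type, the difference was 1.04 for Col4a1, 1.50 for Col6a3, 1.24 for Col15a1, 1.38 for Lama4, 1.11 for Nid1, 1.31 for Hspg2 and 1.35 for Vim. Each of these calls was lost in at least 4 of the 8 fits that left out 1 library.

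The same test passed for genes of the accompanying lists. Among endothelial markers the difference was 1.71 for Kdr, 1.33 for Eng and 1.55 for Flt1. Among TGF-beta pathway genes it was 2.14 for Thbs1 and 1.59 for Tgfbi. Among matrix receptors it was 1.57 for Itgb3 and 1.39 for Itga5. Sparcl1, of the collagen processing list, was at 1.04, the fibroblast marker Prrx1 at 2.31 and the pericyte marker Ednra at 1.33. Tbx2 went the other way, at -3.05. Of these, Kdr, Thbs1, Tgfbi and Tbx2 were called in every such fit. Sparcl1, Itgb3, Itga5 and Ednra lost the call in most of them, and Eng, Flt1 and Prrx1 in some.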

How the results depend on the processing

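Of the 40 genes, edgeR called 0 for DMXAA in wild type, 4 for DMXAA in the knockout-labelled islets, 7 for the difference of the effects, 3 for genotype under DMSO and 7 for genotype under DMXAA. DESeq2 called 1, 11, 12 and 5 in the first 4. In the knockout-labelled DMXAA comparison limma-voom called 0 (18 at an unadjusted p under 0.05, beside 6.83% of all tested genes), the older quasi-likelihood form 1, no filter 11, a stricter filter 2 and a fit of the compared libraries alone 12. For genotype under DMSO limma-voom (14 at an unadjusted p under 0.05, beside 12.1% of all tested genes), the older form (19, 12.1%), the stricter filter (20, 13.2%) and the compared libraries alone (24, 14%) called 0 each. For genotype under DMXAA the compared libraries alone gave 2 (18 at an unadjusted p under 0.05, beside 12% of all tested genes). Leaving out 1 library gave 0 to 8, 0 to 8, 0 to 11, 0 to 9 and 0 to 11 called genes. The medians ran from -0.94 to -0.11, 0.74 to 0.99, 1.04 to 1.73, -0.85 to -0.47 and 0.33 to 1.10, and none changed sign. The summed CPM of the knockout-labelled DMSO pair averaged 1087 CPM, and 1041 CPM with no scaling factor. The cause of these shifts was not tested.

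Over all tested genes, the 64 calls of the knockout-labelled DMXAA comparison became 154 with DESeq2, 0 with limma-voom, 29 with the older form, 177 with no filter and 129 with the compared libraries alone. The 38 calls of genotype under DMSO became 155, 18, 17, 159 and 25. With the stricter filter the calls in these comparisons were 51 and 24. DESeq2 raised 253 to 330 for DMXAA in wild type, 204 to 312 for the difference and 407 to 616 for genotype under DMXAA.

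Groups share replicate numbers, but same-numbered libraries of a genotype deviated together only weakly (correlation 0.0479 in wild type and 0.0482 in the knockout-labelled islets), so the numbers were not taken as pairs. With a replicate block the called genes were 0, 3, 7, 4 and 8. Over all tested genes 1.52, 0.358 and 1.27% were called in the first 3 of these comparisons. Among single-gene results, more calls were lost than gained in the fits without 1 library. Under the other settings 69 lost a call and 29 gained one. No result called in the main or the altered fit changed direction. Changes of sign in genes called in neither fit were not counted. With 2 libraries a group, the spread limits every call.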
